A study of Homo sapiens with 9 samples.

Results

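The 47 genes described here encode coagulation factors, complement components, protease inhibitors and carrier proteins of the blood plasma. They were given as a list of human symbols, by a rule that uses no level and no difference, and were found in the count table by their Entrez numbers. The list was nonetheless chosen with earlier results of these data known. Of the 47, 43 had a row among the 11746 features with an Entrez number: 11 coagulation genes, 9 complement genes, 11 protease inhibitor genes and 12 genes of carriers and other plasma proteins. PLG, CFB, SERPINF2 and A1BG had no row in the table, in which every feature was above 0.5 CPM (reads normalized to the library total) in at least 3 libraries. All 43 were among the 11064 features that passed the filter on low counts. CD46, CD55 and CD59 are complement regulators held on the cell surface and are not secreted like the others.

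Hepatocytes make most of the proteins dissolved in blood plasma. Coagulation proceeds through serine proteases that cut each other in a chain until thrombin turns fibrinogen into fibrin. Complement works through a similar chain that ends in the marking or lysis of cells, and serpins and other inhibitors in the same plasma hold these proteases in check. Carriers such as transferrin and transthyretin move iron, hormones and vitamins, and the output of many of these genes shifts in the acute phase response, in which interleukin signals reach the liver. KEAP1 is the adaptor of a ubiquitin ligase that keeps the transcription factor NRF2 low, and its loss is used to raise NRF2.

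The libraries came from HepG2, a human liver cancer line that still makes many plasma proteins. Every group, the control included, had been transduced with lentiCRISPRv2, which carries Cas9 and a guide RNA, and selected with puromycin. sgCtrl carried the guide sgAAVS168 against the AAVS1 locus, and sgKeap1-1 and sgKeap1-2 each carried a different guide against KEAP1. RNA was collected 48 h after seeding, with 3 libraries a group. The study's methods describe selected populations and no isolation of single clones. The labels do not say if the libraries of a group came from separate cultures, so p-values here measure the spread between these libraries, which may be technical. Each guide is compared with the same 3 sgCtrl libraries, which ties the results of the guides to each other.

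QuantSeq 3' end sequencing gave 3011644 to 4725840 counted reads a library (median 3758185), and levels are CPM after TMM normalization. The level of KEAP1 RNA was 63.3 to 89.1 CPM in sgCtrl, 53.3 to 63.99 in sgKeap1-1 and 73.8 to 85.5 in sgKeap1-2, without a call by edgeR's quasi-likelihood test (adjusted p = 0.211 and 0.952). A count of 3' end reads does not report a frameshift. The NRF2 targets NQO1, GCLM, GCLC and TXNRD1 were higher with each guide, by log2 fold changes of 1.19 to 2.13 with sgKeap1-1 and 1.38 to 2.34 with sgKeap1-2 (highest adjusted p = 0.0027 and 0.000577). All 11 hepatocyte markers had a row, with a summed level of 28861 to 36331 CPM in sgCtrl, 21691 to 27439 in sgKeap1-1 and 20053 to 22423 in sgKeap1-2. Without albumin (ALB), which is itself a plasma protein, the other 10 summed to 17838 to 20021 CPM in sgCtrl, 16324 to 19687 in sgKeap1-1 and 15777 to 18390.0 in sgKeap1-2. On the first principal component the sgCtrl libraries lay apart from the others, and on the second the libraries numbered 2 lay apart from those numbered 1 and 3 in every group. sgKeap1-2 replicate 3 lay at the other end of the second.

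Most of the plasma protein genes that passed the test fell with a KEAP1 guide, and a few rose. With sgKeap1-1, 11 of the 43 members passed the threshold of an adjusted p under 0.05, 8 lower and 3 higher, beside 4.20% of all features tested (1.40% lower, 2.80% higher). With sgKeap1-2, 21 of 43 passed, 17 lower and 4 higher, beside 10.8% of all features (4.85% lower, 5.96% higher). Against sgCtrl, libraries of both guides as 1 group gave 18 of 43, 15 lower and 3 higher, beside 9.64% of all features (4.13% lower, 5.51% higher). The 15 include FETUB, which passed the filter on low counts only through the sgCtrl libraries, where it was high. The median log2 fold change of the 43 members was -0.16 with sgKeap1-1 and -0.18 with sgKeap1-2, and that of all features was -0.00062 and -0.01.

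**Figure D1:**
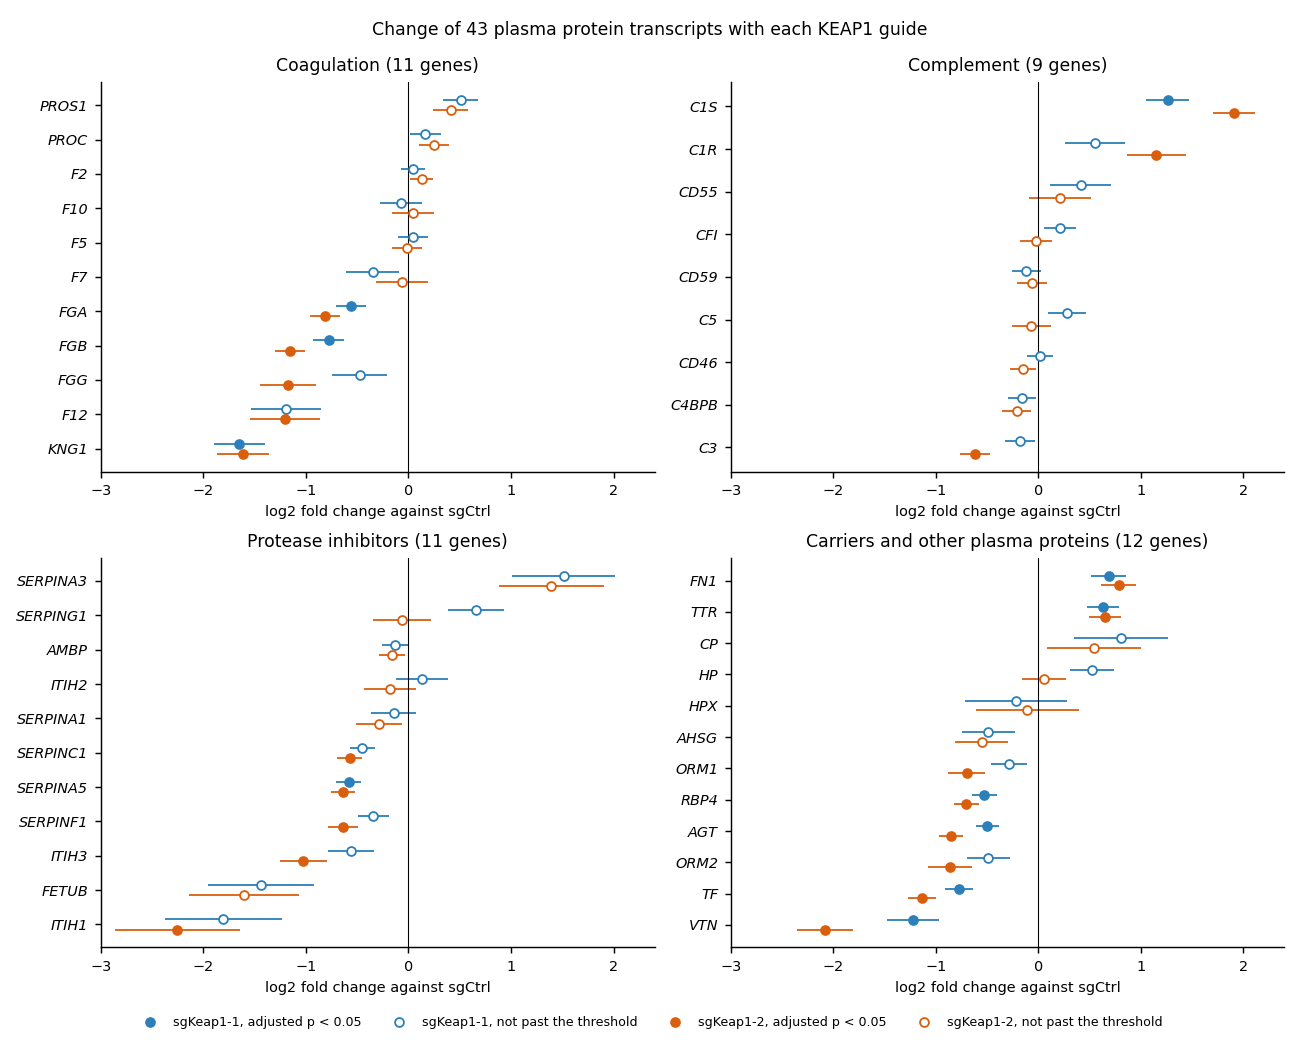
Log2 fold change against sgCtrl (horizontal axis) with its standard error (bars) for the 43 members, in 4 groups by role, with sgKeap1-1 in blue and sgKeap1-2 in orange; filled points passed an adjusted p of 0.05. KNG1, VTN and ITIH1 lie farthest to the left with sgKeap1-2, C1S lies farthest to the right, and the filled points are 11 for sgKeap1-1 and 21 for sgKeap1-2.

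The count for sgKeap1-1 changed with the libraries kept and with the model. In that comparison all 3 pairs of libraries with the same number deviated together, as did sgCtrl replicate 3 with sgKeap1-1 replicate 1. With the replicate number as a block 17 of 43 members passed (11 lower, 6 higher), beside 8.83% of all features. By role these were 1 higher and 4 lower in coagulation, and 1 higher and 0 lower in complement. They were 1 higher and 2 lower among the protease inhibitors, and 3 higher and 5 lower among the carriers. The counts above and those by role below are without the block unless stated. The 6 members added by the block were F12, PROS1, SERPINA3, SERPINC1, AHSG and CP. SERPINA3 passed the filter on low counts only through libraries where it was high, so its call is not support for a rise. Without sgCtrl replicate 1 only 4 members passed with sgKeap1-1, without sgCtrl replicate 3 there were 6, without sgKeap1-1 replicate 1 there were 5 and without sgKeap1-1 replicate 3 there were 7. With sgKeap1-2, 11 passed without sgCtrl replicate 1. Read as ranges alone, 13 members lay below all sgCtrl libraries in every sgKeap1-1 library and 7 lay above them, beside 10.3% and 11.5% of all features. With sgKeap1-2 the counts were 19 below and 6 above, beside 13.7% and 14.3%.

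With sgKeap1-2 the genes of coagulation split between fibrinogen with the contact system, which fell, and factor V with the vitamin K dependent factors, which did not pass the threshold. With sgKeap1-1, 3 of the 11 measured genes fell and none rose, beside 1.40% lower and 2.80% higher of all features, and with sgKeap1-2, 5 fell and none rose, beside 4.85% and 5.96%. The 3 genes of fibrinogen, FGB, FGA and FGG, encode the chains of the protein that thrombin turns into fibrin, and they lie side by side on chromosome 4. Positions are on GRCh37: FGB (Entrez gene 2244, chr4:155484163-155493959, + strand), FGA (Entrez gene 2243, chr4:155504278-155511894, - strand) and FGG (Entrez gene 2266, chr4:155525286-155534119, - strand). Their promoters are shown because these neighbours all fell with sgKeap1-2. They run from 250 bases before to 50 after the start, 5′ to 3′ along the gene, and were taken from RefSeq (GRCh38.p14) and placed on GRCh37 by exact match. For FGB and FGG this start differs from the gene start in the positions above, and the FGG sequence lies within the gene as given there.
FGB, chr4:155483882-155484181, + strand: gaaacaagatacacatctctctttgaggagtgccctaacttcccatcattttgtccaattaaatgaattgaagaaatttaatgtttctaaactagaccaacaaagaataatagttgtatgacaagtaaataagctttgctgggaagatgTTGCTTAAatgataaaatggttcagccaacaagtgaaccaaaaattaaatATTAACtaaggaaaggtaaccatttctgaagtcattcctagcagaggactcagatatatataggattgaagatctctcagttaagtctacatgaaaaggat
FGA, chr4:155511845-155512144, - strand: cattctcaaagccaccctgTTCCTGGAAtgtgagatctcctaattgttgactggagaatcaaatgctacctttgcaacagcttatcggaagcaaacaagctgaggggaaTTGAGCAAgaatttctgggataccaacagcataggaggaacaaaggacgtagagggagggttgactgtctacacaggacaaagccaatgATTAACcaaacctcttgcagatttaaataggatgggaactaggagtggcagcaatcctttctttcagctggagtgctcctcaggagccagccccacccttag
FGG, chr4:155533759-155534058, - strand: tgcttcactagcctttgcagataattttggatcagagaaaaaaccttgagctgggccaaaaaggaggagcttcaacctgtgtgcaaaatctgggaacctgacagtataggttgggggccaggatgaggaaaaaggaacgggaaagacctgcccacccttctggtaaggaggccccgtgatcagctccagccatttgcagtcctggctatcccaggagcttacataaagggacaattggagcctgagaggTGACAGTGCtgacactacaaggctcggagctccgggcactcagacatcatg
Capitals mark matches on either strand to a C/EBP site (TTGCNNAA), part of an HNF1 site (GTTAAT), a STAT site (TTCNNNGAA), an HNF4A core (CAAAGTCCA) or the core of the antioxidant response element (TGACNNNGC), the element that NRF2 binds. FGB and FGA both held a C/EBP match, at position -101 (TTGCTTAA) and -141 (TTGAGCAA) from the start, and a match to the part of an HNF1 site (ATTAAC) at -51 and -52. FGA also held a STAT match at -231, and FGG held only an antioxidant response element core, at -1. Among 27305 promoters of the same length, 10.56% held the C/EBP letters, 6.893% the HNF1 letters, 7.881% the STAT letters, 0.3589% the HNF4A letters and 13.56% the antioxidant response element letters. Of the 33 measured members with a promoter in that table, 7, 5, 8, 2 and 6 held them, in the same order. The marked matches do not overlap each other, and a match of letters is not a shown binding site.

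The level of FGB was 1522, 1037 and 1264 CPM in sgCtrl replicates 1 to 3, 683, 794 and 750.5 with sgKeap1-1, and 496, 589 and 633 with sgKeap1-2. All 6 libraries of KEAP1 guides lay below all 3 of sgCtrl. FGB had a log2 fold change against sgCtrl of -0.78 (SE 0.15, adjusted p = 0.00575) with sgKeap1-1 and -1.15 (SE 0.15, adjusted p = 0.000125) with sgKeap1-2. FGA stood at 1473, 1032 and 1128 CPM in sgCtrl replicates 1 to 3, 796, 839.8 and 832 with sgKeap1-1, and 599.6, 681 and 787 with sgKeap1-2. Its groups did not overlap either. FGA had a log2 fold change against sgCtrl of -0.56 (SE 0.14, adjusted p = 0.0434) with sgKeap1-1 and -0.81 (SE 0.15, adjusted p = 0.00197) with sgKeap1-2. The call of FGA with sgKeap1-1 was lost without sgCtrl replicate 1 or 3 or any 1 of the sgKeap1-1 libraries (adjusted p = 0.0851 to 0.254). The calls of FGB with each guide and of FGA with sgKeap1-2 held without any 1 library. FGG was at 1552, 1303 and 1163 CPM in sgCtrl replicates 1 to 3, 817, 1192 and 882 with sgKeap1-1, and 692, 748 and 339 with sgKeap1-2. Its sgKeap1-1 replicate 2 reached the sgCtrl range and its sgKeap1-2 replicate 3 was the lowest of the 9. FGG had a log2 fold change against sgCtrl of -0.47 (SE 0.27, adjusted p = 0.469) with sgKeap1-1 and -1.18 (SE 0.27, adjusted p = 0.0193) with sgKeap1-2. This call was lost without sgCtrl replicate 1 (adjusted p = 0.067).

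KNG1 (Entrez gene 3827, chr3:186435137-186462199, + strand) encodes kininogen, the precursor of bradykinin and a cofactor of contact activation. F12 (Entrez gene 2161, chr5:176829134-176843584, - strand) encodes factor XII, the protease that starts it. The level of KNG1 was 26.2, 31.6 and 27.02 CPM in sgCtrl replicates 1 to 3, 8.52, 12.4 and 5.78 with sgKeap1-1, and 8.92, 9.50 and 9.20 with sgKeap1-2. Every library with a KEAP1 guide was below the lowest of sgCtrl. KNG1 had a log2 fold change against sgCtrl of -1.65 (SE 0.25, adjusted p = 0.00109) with sgKeap1-1 and -1.61 (SE 0.25, adjusted p = 0.000739) with sgKeap1-2. These calls held without any 1 library. F12 was at 15.1, 11.2 and 17.3 CPM in sgCtrl replicates 1 to 3, 5.60, 7.18 and 6.30 with sgKeap1-1, and 3.07, 5.36 and 10.2 with sgKeap1-2. Both guides lay below the sgCtrl range and overlapped each other. F12 had a log2 fold change against sgCtrl of -1.19 (SE 0.34, adjusted p = 0.0691) with sgKeap1-1 and -1.20 (SE 0.34, adjusted p = 0.037) with sgKeap1-2. With the block the value for sgKeap1-1 passed (adjusted p = 0.0159). The call of F12 with sgKeap1-2 was lost in 6 of 9 fits that left out 1 library, those without sgCtrl replicate 1 or 3, sgKeap1-1 replicate 1 or 3, or sgKeap1-2 replicate 1 or 2 (adjusted p = 0.052 to 0.143). Exons of F12 overlap those of GRK6 on the opposite strand, and no source used here says if the counting used strand, so reads of the pair cannot be told apart.

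The 6 coagulation genes that did not pass with either guide were F2, F5, F7, F10, PROC and PROS1, which encode prothrombin, factors V, VII and X, and the anticoagulant proteins C and S. Their log2 fold changes ran from -0.35 to 0.51 over both comparisons. Prothrombin RNA was at 642 to 719 CPM in sgCtrl, 651 to 743 in sgKeap1-1 and 709 to 831 in sgKeap1-2. F7 and F10 lie next to each other on chromosome 13 (chr13:113760102-113774999 and chr13:113777113-113803843, both on the + strand), and neither passed. PROS1 (Entrez gene 5627) was nearest to the threshold, at 34.4, 32.6 and 31.8 CPM in sgCtrl replicates 1 to 3, 43.6, 56.4 and 40.7 with sgKeap1-1, and 47.7, 47.3 and 36.8 with sgKeap1-2. All of its KEAP1 guide libraries lay above those of sgCtrl. PROS1 had a log2 fold change against sgCtrl of 0.51 (SE 0.17, adjusted p = 0.132) with sgKeap1-1 and 0.41 (SE 0.17, adjusted p = 0.162) with sgKeap1-2. With the block the value for sgKeap1-1 passed (adjusted p = 0.0467). The median log2 fold change of the 11 genes was -0.35 with sgKeap1-1 and -0.06 with sgKeap1-2, so the median with sgKeap1-2 sits near 0 while 5 of the 11 fell.

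In complement, with sgKeap1-2, the proteases that open the classical pathway rose and the central component fell. With sgKeap1-1, 1 of the 9 measured genes rose and none fell, beside 4.20% of all features called, and with sgKeap1-2, 2 rose and 1 fell, beside 10.8%. C1S (Entrez gene 716, chr12:7096351-7178336, + strand) and C1R (Entrez gene 715, chr12:7187513-7245203, - strand) encode the proteases of the C1 complex and lie next to each other, on opposite strands. The level of C1S was 13.2, 10.2 and 10.3 CPM in sgCtrl replicates 1 to 3, 26.3, 29.2 and 26 with sgKeap1-1, and 53.2, 35.6 and 39.2 with sgKeap1-2. The highest sgCtrl library was below the lowest library of either guide. C1S had a log2 fold change against sgCtrl of 1.26 (SE 0.21, adjusted p = 0.00212) with sgKeap1-1 and 1.91 (SE 0.21, adjusted p = 2.95e-05) with sgKeap1-2. These calls held without any 1 library. C1R was at 4.50, 4.08 and 4.46 CPM in sgCtrl replicates 1 to 3, 8.03, 5.44 and 5.78 with sgKeap1-1, and 9.22, 8.53 and 11.4 with sgKeap1-2, which is 12 to 47 counted reads a library. Its groups did not overlap. C1R had a log2 fold change against sgCtrl of 0.55 (SE 0.30, adjusted p = 0.431) with sgKeap1-1 and 1.15 (SE 0.29, adjusted p = 0.0181) with sgKeap1-2. The call with sgKeap1-2 was lost without any 1 of the sgCtrl libraries or without sgKeap1-2 replicate 3 (adjusted p = 0.0571 to 0.0597). Exons of C1R overlap those of C1RL on the same strand. SERPING1, the inhibitor of C1R and C1S, was named after its values were seen and was at 9.18 to 14.03 CPM in sgCtrl, 15.2 to 21.98 in sgKeap1-1 and 8.30 to 15.01 in sgKeap1-2 and did not pass with either guide.

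C3 (Entrez gene 718, chr19:6677715-6730573, - strand), the component that all complement pathways cut, had the highest mean level of the 9 genes. Its level was 1336, 1242 and 941 CPM in sgCtrl replicates 1 to 3, 913, 1161 and 1034 with sgKeap1-1, and 675, 823 and 789 with sgKeap1-2. The sgKeap1-1 libraries overlapped those of sgCtrl and the sgKeap1-2 libraries lay below them. C3 had a log2 fold change against sgCtrl of -0.18 (SE 0.15, adjusted p = 0.665) with sgKeap1-1 and -0.62 (SE 0.15, adjusted p = 0.0137) with sgKeap1-2. That call was lost without sgCtrl replicate 1 or sgKeap1-2 replicate 1 (adjusted p = 0.0702 to 0.0847). The 6 that did not pass with either guide were C5, which starts the lytic complex, the soluble regulators C4BPB and CFI, and the surface regulators CD46, CD55 and CD59. Their log2 fold changes ran from -0.21 to 0.41. The nearest to the threshold was C4BPB, at 110.0 to 120.3 CPM in sgCtrl, 89.6 to 122 in sgKeap1-1 and 94.2 to 110.1 in sgKeap1-2 (log2 fold change -0.21 (SE 0.14, adjusted p = 0.401) with sgKeap1-2). The interval of 2 standard errors around that value, -0.49 to 0.07, does not hold a change of 1 on the log2 scale. The median log2 fold change of the 9 genes was 0.21 with sgKeap1-1 and -0.06 with sgKeap1-2.

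**Figure D2:**
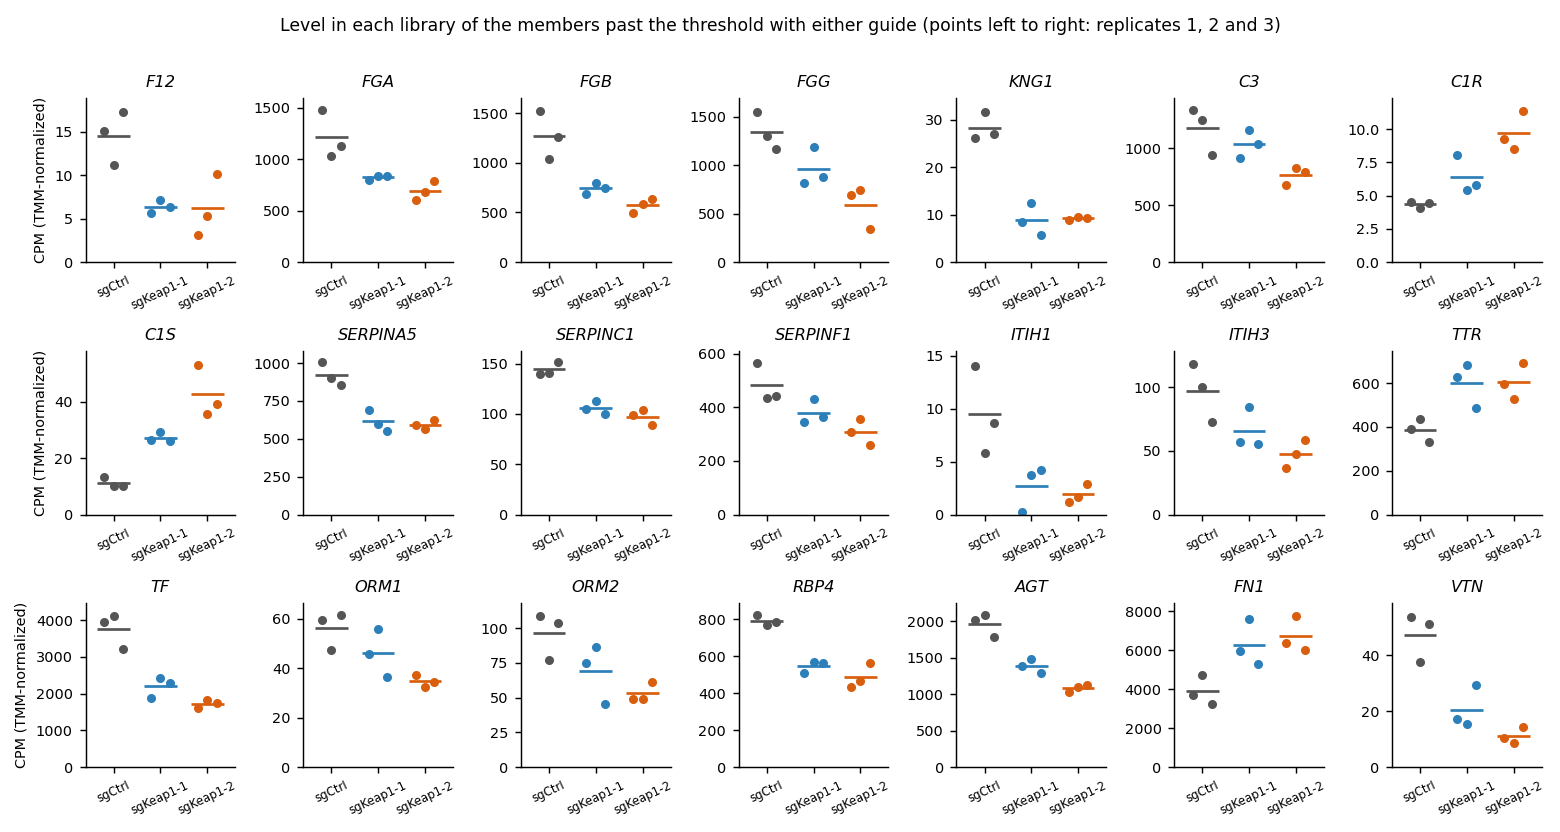
TMM-normalized CPM (vertical axes, from 0, a scale of their own in each panel) in each of the 9 libraries for the 21 members past the threshold with either guide; points are libraries and lines are group means. All 3 libraries of sgKeap1-2 lie outside the sgCtrl range in each of the 21 panels.

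Among the protease inhibitors no gene passed upwards with either guide without the block. With sgKeap1-1, 1 of the 11 measured genes fell, beside 1.40% of all features called lower, and with sgKeap1-2, 5 fell, beside 4.85%. SERPINA5 (Entrez gene 5104, chr14:95027779-95059455, + strand) encodes the protein C inhibitor. SERPINC1 (Entrez gene 462, chr1:173872938-173886465, - strand) encodes antithrombin, the main inhibitor of thrombin, and SERPINF1 (Entrez gene 5176, chr17:1665323-1680859, + strand) encodes the pigment epithelium-derived factor, a serpin without inhibitory activity. The level of SERPINA5 was 1007, 903 and 853 CPM in sgCtrl replicates 1 to 3, 689.8, 601 and 554 with sgKeap1-1, and 593, 562 and 622 with sgKeap1-2. The libraries of both guides overlapped each other and lay below those of sgCtrl. SERPINA5 had a log2 fold change against sgCtrl of -0.58 (SE 0.12, adjusted p = 0.0108) with sgKeap1-1 and -0.64 (SE 0.12, adjusted p = 0.00308) with sgKeap1-2. The call with sgKeap1-1 was lost without sgCtrl replicate 1 or sgKeap1-1 replicate 3 (adjusted p = 0.0604 to 0.0799), and exons of SERPINA5 overlap those of SERPINA4 on the same strand.

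SERPINC1 was at 139, 141 and 152 CPM in sgCtrl replicates 1 to 3, 105, 113 and 99.6 with sgKeap1-1, and 99.01, 104 and 88.6 with sgKeap1-2. Every library with a KEAP1 guide was below every sgCtrl library. SERPINC1 had a log2 fold change against sgCtrl of -0.45 (SE 0.12, adjusted p = 0.0538) with sgKeap1-1 and -0.57 (SE 0.12, adjusted p = 0.00711) with sgKeap1-2. With the block the value for sgKeap1-1 passed as well (adjusted p = 0.0162). SERPINF1 was at 566, 435 and 442 CPM in sgCtrl replicates 1 to 3, 344, 430.2 and 364 with sgKeap1-1, and 309, 357 and 260.4 with sgKeap1-2. The guides overlapped each other and lay below sgCtrl, although sgKeap1-1 replicate 2 came close to the lowest sgCtrl library. SERPINF1 had a log2 fold change against sgCtrl of -0.34 (SE 0.15, adjusted p = 0.294) with sgKeap1-1 and -0.64 (SE 0.15, adjusted p = 0.0129) with sgKeap1-2. This call was lost without sgCtrl replicate 1 (adjusted p = 0.0829).

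ITIH1 (Entrez gene 3697, chr3:52811611-52826084, + strand) and ITIH3 (Entrez gene 3699, chr3:52828784-52842815, + strand) encode heavy chains of the inter-alpha-trypsin inhibitor, which bind hyaluronan, and are neighbours on chromosome 3. The level of ITIH1 was 14.03, 5.78 and 8.64 CPM in sgCtrl replicates 1 to 3, 0.243, 3.70 and 4.20 with sgKeap1-1, and 1.23, 1.71 and 2.90 with sgKeap1-2, from 1 to 53 counted reads a library. All 6 libraries of the guides lay below sgCtrl, and the guides overlapped. ITIH1 had a log2 fold change against sgCtrl of -1.81 (SE 0.57, adjusted p = 0.111) with sgKeap1-1 and -2.25 (SE 0.61, adjusted p = 0.0299) with sgKeap1-2. The call was lost without sgCtrl replicate 1 or 3 or sgKeap1-2 replicate 1 or 2 (adjusted p = 0.0719 to 0.142). ITIH3 was at 119, 101 and 72.4 CPM in sgCtrl replicates 1 to 3, 56.9, 84.9 and 55.2 with sgKeap1-1, and 36.3, 47.8 and 58.6 with sgKeap1-2. The sgKeap1-2 libraries lay below the sgCtrl range and the sgKeap1-1 libraries overlapped it. ITIH3 had a log2 fold change against sgCtrl of -0.56 (SE 0.22, adjusted p = 0.239) with sgKeap1-1 and -1.03 (SE 0.23, adjusted p = 0.011) with sgKeap1-2. The call was lost without sgCtrl replicate 1 (adjusted p = 0.056). A heavy chain gene on another chromosome, ITIH2 (chr10:7745279-7791483), was named after its values were seen, at 1164, 1305 and 1034 CPM in sgCtrl replicates 1 to 3, 1105, 1519 and 1209.9 with sgKeap1-1, and 1210.3, 1301 and 585 with sgKeap1-2. One library, sgKeap1-2 replicate 3, was far below the other 8, and ITIH2 did not pass with either guide.

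AMBP (Entrez gene 259, chr9:116822407-116840608, - strand), whose product is cut into alpha-1-microglobulin and bikunin, the light chain of the inter-alpha-trypsin inhibitor, had the highest mean level of the inhibitors. It was at 2093, 1911 and 1740.2 CPM in sgCtrl replicates 1 to 3, 1733, 1816 and 1682 with sgKeap1-1, and 1535, 1605 and 1987 with sgKeap1-2. The groups overlapped. AMBP had a log2 fold change against sgCtrl of -0.14 (SE 0.13, adjusted p = 0.724) with sgKeap1-1 and -0.16 (SE 0.13, adjusted p = 0.489) with sgKeap1-2. Nearest to the threshold was FETUB, fetuin-B, an inhibitor of an egg coat protease, at 5.29, 4.42 and 3.34 CPM in sgCtrl replicates 1 to 3, 0.730, 2.39 and 1.58 with sgKeap1-1, and 2.46, 0.731 and 1.21 with sgKeap1-2 (log2 fold change -1.44 (SE 0.51, adjusted p = 0.164) with sgKeap1-1 and -1.60 (SE 0.53, adjusted p = 0.0738) with sgKeap1-2). All of its KEAP1 guide libraries lay below the sgCtrl range, with 3 to 20 counted reads a library. FETUB passed with sgKeap1-2 and the block (adjusted p = 0.0474) and with both guides as 1 group (adjusted p = 0.0334). It passed the filter on low counts only through the sgCtrl libraries, where it was high, so these calls are not support for a fall. SERPINA3, alpha-1-antichymotrypsin, had 3 to 27 counted reads a library, 3 to 10 in sgCtrl, and was named after its values were seen. It was at 0.836 to 2.65 CPM in sgCtrl, 2.36 to 5.88 in sgKeap1-1 and 3.39 to 5.12 in sgKeap1-2. SERPINA3 had a log2 fold change of 1.51 (SE 0.50, adjusted p = 0.126) with sgKeap1-1 and 1.39 (SE 0.51, adjusted p = 0.106) with sgKeap1-2. With the block it passed with sgKeap1-1 (adjusted p = 0.043) and with sgKeap1-2 (adjusted p = 0.0351). SERPINA3 passed the filter on low counts only through libraries with a KEAP1 guide, where it was high. These calls are therefore not support for a rise. SERPINA1, alpha-1-antitrypsin, was at 24.8 to 34.9 CPM in sgCtrl, 26 to 29.4 in sgKeap1-1 and 18.03 to 33.6 in sgKeap1-2, without a call. The median log2 fold change of the 11 genes was -0.34 with sgKeap1-1 and -0.57 with sgKeap1-2.

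The carriers and other plasma proteins held the largest share of called members among the 4 groups, and they went both ways. With sgKeap1-1, 4 of the 12 measured genes fell and 2 rose, beside 4.20% of all features called, and with sgKeap1-2, 6 fell and 2 rose, beside 10.8%. TF (Entrez gene 7018, chr3:133464884-133515485, + strand) encodes transferrin, which carries iron. AGT (Entrez gene 183, chr1:230826522-230881322, - strand) encodes angiotensinogen, the precursor of the angiotensins, and VTN (Entrez gene 7448, chr17:26694305-26700110, - strand) encodes vitronectin, an adhesion protein that stabilizes the inhibitor of plasminogen activators. The level of TF was 3955, 4119 and 3213 CPM in sgCtrl replicates 1 to 3, 1869.8, 2431 and 2291 with sgKeap1-1, and 1599.9, 1815 and 1739.7 with sgKeap1-2. The highest library with a KEAP1 guide was below the lowest of sgCtrl. TF had a log2 fold change against sgCtrl of -0.78 (SE 0.14, adjusted p = 0.0031) with sgKeap1-1 and -1.13 (SE 0.14, adjusted p = 7.62e-05) with sgKeap1-2. These calls held without any 1 library. AGT was at 2009, 2084 and 1776 CPM in sgCtrl replicates 1 to 3, 1391, 1479 and 1283 with sgKeap1-1, and 1028, 1104 and 1121 with sgKeap1-2. All 3 groups lay apart from each other, in the order sgCtrl, sgKeap1-1 and sgKeap1-2 from the highest. AGT had a log2 fold change against sgCtrl of -0.50 (SE 0.11, adjusted p = 0.0205) with sgKeap1-1 and -0.85 (SE 0.11, adjusted p = 0.000196) with sgKeap1-2. The call of AGT with sgKeap1-1 was lost without sgCtrl replicate 1 or 2 or sgKeap1-1 replicate 1 or 3 (adjusted p = 0.0783 to 0.108). Exons of AGT overlap those of COG2 on the opposite strand, and exons of TF overlap those of SRPRB on the same strand.

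VTN was at 53.5, 37.4 and 50.98 CPM in sgCtrl replicates 1 to 3, 17.03, 15.2 and 29.2 with sgKeap1-1, and 10.5, 8.77 and 14.3 with sgKeap1-2. The 3 groups lay apart in the same order. VTN had a log2 fold change against sgCtrl of -1.22 (SE 0.25, adjusted p = 0.0114) with sgKeap1-1 and -2.08 (SE 0.27, adjusted p = 0.000148) with sgKeap1-2, the largest decrease among the called carriers. Its call with sgKeap1-1 was lost without sgCtrl replicate 1 or 3 or sgKeap1-1 replicate 1 (adjusted p = 0.0621 to 0.0753). RBP4 (Entrez gene 5950, chr10:95351444-95361501, - strand) encodes the retinol binding protein, which travels in plasma bound to transthyretin, the product of TTR (Entrez gene 7276, chr18:29136972-29178796, + strand) and also a carrier of thyroxine. The level of RBP4 was 823, 766 and 784 CPM in sgCtrl replicates 1 to 3, 511, 570.0 and 564 with sgKeap1-1, and 431, 466 and 561 with sgKeap1-2. The level of TTR was 391, 436 and 333 CPM in sgCtrl replicates 1 to 3, 627, 682 and 488 with sgKeap1-1, and 598, 528 and 694 with sgKeap1-2. RBP4 was below its sgCtrl range and TTR above its own in every library with a KEAP1 guide. RBP4 had a log2 fold change against sgCtrl of -0.53 (SE 0.12, adjusted p = 0.0209) with sgKeap1-1 and -0.70 (SE 0.12, adjusted p = 0.00162) with sgKeap1-2. For TTR it was 0.63 (SE 0.15, adjusted p = 0.0298) and 0.65 (SE 0.15, adjusted p = 0.0131). The call of RBP4 with sgKeap1-1 was lost without sgCtrl replicate 1 or 3 or sgKeap1-1 replicate 1 or 3 (adjusted p = 0.0593 to 0.126). That of TTR with sgKeap1-1 was lost without sgCtrl replicate 1 or 3 or sgKeap1-1 replicate 1 or 2 (adjusted p = 0.114 to 0.165). With sgKeap1-2 the TTR call was lost without sgCtrl replicate 1 or 3 (adjusted p = 0.0524 to 0.0793).

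FN1 (Entrez gene 2335, chr2:216225163-216300796, - strand) encodes fibronectin, which hepatocytes release into plasma and other cells lay down in the matrix. Counted by 3' end reads, which do not grow with transcript length, it had the highest mean over all 9 libraries of the 43 members, at 3693, 4738 and 3234 CPM in sgCtrl replicates 1 to 3, 5944, 7578 and 5276 with sgKeap1-1, and 6345, 7775 and 5982 with sgKeap1-2. In sgCtrl alone AHSG was higher, with a mean of 5356 CPM beside 3889 for FN1. Every library with a KEAP1 guide was above the sgCtrl range. FN1 had a log2 fold change against sgCtrl of 0.69 (SE 0.17, adjusted p = 0.0344) with sgKeap1-1 and 0.79 (SE 0.17, adjusted p = 0.00807) with sgKeap1-2. The call with sgKeap1-1 was lost without sgCtrl replicate 1 or 3, sgKeap1-1 replicate 1 or 2, or sgKeap1-2 replicate 1 (adjusted p = 0.0512 to 0.178). With sgKeap1-2 it was lost without sgCtrl replicate 3 (adjusted p = 0.0512). ORM1 (Entrez gene 5004, chr9:117085378-117088759, + strand) and ORM2 (Entrez gene 5005, chr9:117092149-117095531, + strand) encode the alpha-1-acid glycoproteins, lie side by side and are near-identical copies, so that counting could have split or lost their reads. ORM1 was at 59.6, 47.2 and 61.6 CPM in sgCtrl replicates 1 to 3, 45.7, 55.7 and 36.5 with sgKeap1-1, and 37.2, 32.4 and 34.4 with sgKeap1-2. ORM2 was at 109, 77.2 and 104 CPM in sgCtrl replicates 1 to 3, 75.2, 86.2 and 45.2 with sgKeap1-1, and 49.2, 49.2 and 61.5 with sgKeap1-2. For both, the sgKeap1-2 libraries lay below the sgCtrl range and the sgKeap1-1 libraries overlapped it.

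ORM1 had a log2 fold change against sgCtrl of -0.29 (SE 0.17, adjusted p = 0.504) with sgKeap1-1 and -0.70 (SE 0.18, adjusted p = 0.0203) with sgKeap1-2. For ORM2 it was -0.49 (SE 0.21, adjusted p = 0.296) and -0.86 (SE 0.22, adjusted p = 0.0206). The call of ORM1 with sgKeap1-2 was lost without sgCtrl replicate 1 or 3 or sgKeap1-2 replicate 2 (adjusted p = 0.0729 to 0.0935). That of ORM2 was lost without sgCtrl replicate 1 or 3 or sgKeap1-2 replicate 1 or 2 (adjusted p = 0.0798 to 0.0917). Those that did not pass with either guide were AHSG, HPX, HP and CP, which encode fetuin-A, hemopexin, haptoglobin and ceruloplasmin. Haptoglobin RNA was at 33.3 to 64.8 CPM in sgCtrl, 64.9 to 94.2 in sgKeap1-1 and 53.2 to 55.4 in sgKeap1-2. The median log2 fold change of the 12 genes was -0.39 with sgKeap1-1 and -0.63 with sgKeap1-2.

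The levels of some members differed by replicate number in the same way in each group, a pattern noticed in the data. CP was at 126, 249 and 109 CPM in sgCtrl replicates 1 to 3, 192, 449 and 205 with sgKeap1-1, and 189.7, 334 and 181 with sgKeap1-2. In each group the library numbered 2 was the highest, and within each number both libraries with a KEAP1 guide were above that of sgCtrl. CP had a log2 fold change against sgCtrl of 0.81 (SE 0.46, adjusted p = 0.494) with sgKeap1-1 and 0.55 (SE 0.46, adjusted p = 0.551) with sgKeap1-2. With the block, which compares libraries within a number, the log2 fold change with sgKeap1-1 was 0.79 (adjusted p = 6.39e-05). Exons of CP overlap those of HPS3 on the opposite strand. AHSG (Entrez gene 197, chr3:186330849-186339107, + strand), the neighbour of FETUB on chromosome 3, was the nearest of the 4 to the threshold, at 4554, 7408 and 4105 CPM in sgCtrl replicates 1 to 3, 3239, 5072 and 3146 with sgKeap1-1, and 2829.5, 4070.4 and 4042 with sgKeap1-2. It too was highest at number 2 in each group, and lower with a KEAP1 guide than in sgCtrl within each number. AHSG had a log2 fold change against sgCtrl of -0.49 (SE 0.26, adjusted p = 0.437) with sgKeap1-1 and -0.55 (SE 0.26, adjusted p = 0.225) with sgKeap1-2, with an adjusted p of 0.0302 for sgKeap1-1 with the block. HPX had the opposite pattern, at 48.2, 15.3 and 54.3 CPM in sgCtrl replicates 1 to 3, 32.6, 18.9 and 51.5 with sgKeap1-1, and 35.98, 24.6 and 49.9 with sgKeap1-2, lowest at number 2 in each group. Of the 43 members, 9 were highest and 4 lowest at number 2 in all 3 groups (20.9% and 9.30%), beside 12.2% and 11.7% of all features. The sample descriptions of same-numbered libraries share a prefix and have consecutive library numbers, and no source used here says what these stand for. With sgKeap1-2 and the block, CP and AHSG passed as well (adjusted p = 0.00098 and 0.0115), among 25 of 43 members beside 17.7% of all features.

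**Figure D3:**
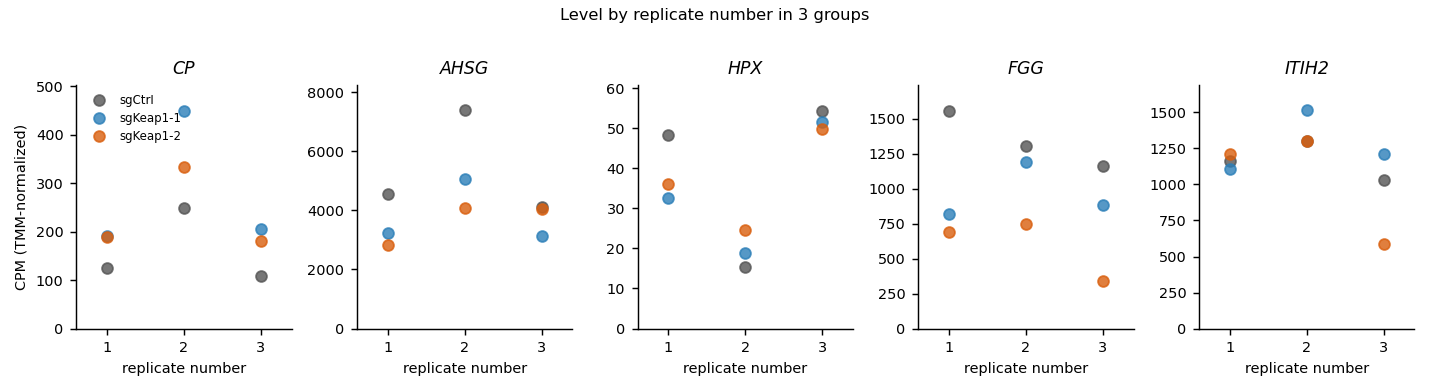
TMM-normalized CPM (vertical axes, from 0) against replicate number (horizontal axis) for 5 members, with the groups in colour and 1 point a library. CP and AHSG are highest and HPX lowest at number 2 in each group, and FGG and ITIH2 are lowest in sgKeap1-2 replicate 3, at 339 and 585 CPM.

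As a share of the counted reads of a library, the 11 coagulation genes held 0.487% ± 0.0705 (SD, n = 3) in sgCtrl, 0.361% ± 0.0239 in sgKeap1-1, 0.299% ± 0.0101 in sgKeap1-2. The 9 complement genes held 0.193% ± 0.0237 (SD, n = 3) in sgCtrl, 0.186% ± 0.0156 in sgKeap1-1, 0.153% ± 0.00790 in sgKeap1-2. The 11 protease inhibitor genes held 0.476% ± 0.0410 (SD, n = 3) in sgCtrl, 0.425% ± 0.0218 in sgKeap1-1, 0.384% ± 0.0218 in sgKeap1-2. The 12 carriers and others held 1.65% ± 0.283 (SD, n = 3) in sgCtrl, 1.53% ± 0.233 in sgKeap1-1, 1.47% ± 0.134 in sgKeap1-2. The coagulation share was lower in all 6 libraries with a KEAP1 guide than in any of sgCtrl. The complement and protease inhibitor shares were lower than in any of sgCtrl in every sgKeap1-2 library, and overlapped sgCtrl with sgKeap1-1. The share of the carriers overlapped between all groups and was highest at number 2 in each. In bulk RNA, fewer cells that make a transcript and less of it in each cell cannot be told apart.

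The guides were also compared with each other, to see where they differed. No member passed between sgKeap1-2 and sgKeap1-1 by edgeR's quasi-likelihood test, beside 0.0181% of all features, and DESeq2 and limma-voom called 0 members as well. At an unadjusted p under 0.05 there were 11 of 43 members, beside 5.08% of all features. The difference was below 0 for 32 of 43 members and for 50.6% of all features, with a median log2 difference of -0.16 and -0.0032. The smallest p was that of C1S, with a log2 difference of 0.65 (SE 0.19, adjusted p = 0.811) and an interval of 2 standard errors from 0.27 to 1.02. For VTN the difference was -0.86 (SE 0.28, adjusted p = 0.877) and for AGT it was -0.35 (SE 0.11, adjusted p = 0.877). A call with sgKeap1-2 and none with sgKeap1-1, as for FGG, C3 or C1R, is therefore not shown to be a difference between the guides.

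Other genes of the same pathways were counted from lists written beside the members, each to be read against 4.20% of all features called with sgKeap1-1 and 10.8% with sgKeap1-2. With sgKeap1-1 and the replicate block, which called 8.83% of all features, there were 2 higher and 1 lower among the further coagulation genes, 0 higher and 2 lower among the complement genes, 4 higher and 2 lower among the inhibitors and 2 higher and 5 lower among the plasma proteins. The 4 higher inhibitors include SPINT1, named after its values were seen, with 1, 3 and 0 counted reads in sgCtrl replicates 1 to 3. It passed the filter on low counts only through libraries where it was high, so its call is not support for a rise. The counts that follow are without the block. Of 16 further coagulation and fibrinolysis genes tested, 1 rose and 0 fell with sgKeap1-1, and 2 rose and 1 fell with sgKeap1-2 (median log2 fold change -0.02 and 0.01). These are 6.25% and 18.75% of the 16. S100A10, which with annexin A2 gathers plasminogen on the cell surface, was the one that passed with each guide, with log2 fold changes of 1.01 and 1.001. Of 13 further complement genes, 0 rose and 1 fell with sgKeap1-1, and 0 rose and 3 fell with sgKeap1-2 (median log2 fold change 0.01 and -0.41). CPN1 of carboxypeptidase N, which trims the anaphylatoxins, fell with log2 fold changes of -1.23 and -1.98. Of 16 further inhibitors, 3 rose and 2 fell with sgKeap1-1, and 3 rose and 3 fell with sgKeap1-2 (median log2 fold change 0.16 and 0.09). Those past the threshold with each guide were the inhibitors of trypsin and metalloproteases SPINK1 (1.93 and 1.57), TIMP1 (1.54 and 1.93) and TIMP2 (0.94 and 1.29), which rose, and TIMP3 (-0.63 and -0.996) and kallistatin, SERPINA4 (-1.06 and -1.18), which fell. With sgKeap1-1 the call of CPN1 was lost without sgCtrl replicate 3 or sgKeap1-1 replicate 1 or 3 (adjusted p = 0.0525 to 0.0927), that of TIMP1 without sgCtrl replicate 3 (adjusted p = 0.0503) and that of TIMP3 without sgCtrl replicate 1 or sgKeap1-1 replicate 1 (adjusted p = 0.0933 to 0.114).

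Of 16 further plasma protein genes, 1 rose and 3 fell with sgKeap1-1, and 2 rose and 6 fell with sgKeap1-2 (median log2 fold change -0.25 and -0.65). ALB, albumin, was at 13593, 16311 and 11023 CPM in sgCtrl replicates 1 to 3, 5367, 7752 and 6024 with sgKeap1-1, and 4276, 5181 and 3489 with sgKeap1-2. AFP, alpha-fetoprotein, was at 5380.3, 6894 and 5783 CPM in sgCtrl replicates 1 to 3, 2017, 3139.6 and 2336 with sgKeap1-1, and 1145, 1384 and 929 with sgKeap1-2. Both were below the sgCtrl range in all 6 libraries with a KEAP1 guide, with log2 fold changes of -1.10 and -1.66 for ALB and -1.27 and -2.38 for AFP, and APOH (-0.63 and -0.86) fell while FGL1 (1.01 and 0.89) rose. Among 36 genes of the secretory machinery (translocon, signal peptidase, oligosaccharyltransferase and coat proteins), 0 rose and 0 fell with sgKeap1-1, and 1 rose and 1 fell with sgKeap1-2, which is 0% and 5.56% of them beside 4.20% and 10.8% of all features (with the block 0 higher and 0 lower, and 3 higher and 2 lower), with a median log2 fold change of 0.12 with sgKeap1-1 and 0.06 with sgKeap1-2. Among 15 genes of acute phase signalling, 0 rose and 2 fell with sgKeap1-1, and 1 rose and 2 fell with sgKeap1-2 (median log2 fold change 0.07 and -0.002). With the replicate block the counts were 2 higher and 2 lower with sgKeap1-1 and 3 higher and 2 lower with sgKeap1-2. The pair added upwards with sgKeap1-1, named after their values were seen, were IL6R, the interleukin 6 receptor, at 0.76 on the log2 scale (adjusted p = 0.194, and 0.000534 with the block), and SOCS3, an inhibitor of its signal, at 2.36 (adjusted p = 0.0526, and 0.00736 with the block). SOCS3 had 5, 3 and 3 counted reads in sgCtrl replicates 1 to 3 and 10 to 48 in libraries with a KEAP1 guide. In CPM all 6 of the latter lay above the sgCtrl range. It passed the filter on low counts only through the libraries where it was high, so its calls are not support for a rise. With both guides as 1 group IL6R and SOCS3 passed (adjusted p = 0.0389 and 0.022). Those past the threshold with each guide, with and without the block, were NFKBIA (-0.81 and -0.95), the inhibitor of NF-kB, and IL1RN (-1.11 and -1.52), the interleukin 1 receptor antagonist, which fell. With sgKeap1-1 the call of APOH was lost without sgKeap1-1 replicate 1 (adjusted p = 0.0512) and that of NFKBIA without sgCtrl replicate 1 (adjusted p = 0.0682).

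Markers of other cell types were looked at in the same libraries. Of the cholangiocyte markers, KRT19 and SOX9 had a row, with a summed level of 510.2 to 588 CPM in sgCtrl, 727 to 953 in sgKeap1-1 and 788 to 1036 in sgKeap1-2, and KRT7 and CFTR did not. KRT19 rose (log2 fold change 1.28, adjusted p = 0.00193 with sgKeap1-1, and 1.48, adjusted p = 0.000346 with sgKeap1-2) and SOX9 did not pass. None of the 5 endothelial markers had a row, nor did COL1A2, DCN and LUM of 6 stellate cell and fibroblast markers, whose other 3 summed to 56.1 to 68.6 CPM in sgCtrl, 53.97 to 74.2 in sgKeap1-1 and 65.5 to 76.2 in sgKeap1-2. Of 5 leukocyte markers, PTPRC and CSF1R had no row and none of the other 3 passed without the block (CD14 fell with sgKeap1-1 and the block, adjusted p = 0.0325), with a summed level of 965 to 1810.4 CPM in sgCtrl, 1001 to 2542 in sgKeap1-1 and 685 to 1540.0 in sgKeap1-2 that was nearly all LYZ. Of the 11 hepatocyte markers, 1 rose and 4 fell with sgKeap1-1, and 1 rose and 4 fell with sgKeap1-2 (median log2 fold change -0.06 and -0.33). This is 45.5% of them with each guide, beside 4.20% and 10.8% of all features. With the block there were 2 higher and 4 lower with sgKeap1-1, and 2 higher and 6 lower with sgKeap1-2, beside 8.83% and 17.7% of all features. ALB, APOH and FGL1 are in this list as well as among the further plasma proteins above. The summed level of the 11 was lower with each guide, and without ALB that of the other 10 overlapped between sgCtrl and each guide. The part of these markers in the members' changes was not tested.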

How the data were processed

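RNA of 9 HepG2 libraries was measured by QuantSeq 3' mRNA sequencing. Per the submitters' processing notes and the study's methods, the authors trimmed reads with cutadapt (1.16), aligned them with STAR (2.7.5b), counted them with featureCounts (1.6.3) and deposited whole-number counts per gene. The methods name GRCh37 and the processing notes hg38, and the strand setting of the counting is not given in the sources used here. Gene positions are from GENCODE on GRCh37, and promoters from RefSeq (GRCh38.p14).

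Groups and replicate numbers came from the sample titles, and no sample column was left unmapped. The 1052 features without an Entrez number (1.34% of counts) were left out. edgeR (4.0.16, R 4.3.3) was run on the remaining features after filterByExpr and TMM scaling, with its robust quasi-likelihood test, all 9 libraries in 1 fit, the group as the only factor and Benjamini-Hochberg adjustment over all features tested; both guides together were compared in a fit of 2 groups. The threshold was an adjusted p of 0.05. The SE was obtained as the size of a log2 fold change over the root of its F statistic. The test was checked on simulated counts. Libraries of 1 group differed by more than sampling noise (chi-square per degree of freedom 4.63 to 24.2 over the 9 same-group pairs), so none was counted as a copy. Leaving out a library, the replicate block, other scalings, filters and tools were tried as alternatives.

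The members, the lists beside them and the tests were chosen with earlier results of these data known. Values are given for each member past the threshold with either guide, for the member of highest mean level in each group and for the one nearest to the threshold, and from each further list for at most 5 genes past the threshold with each guide; members adjacent in the genome are named as pairs.

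Over the genes, the deviations of same-numbered libraries of sgKeap1-1 and sgCtrl from their group means had correlations of 0.226, 0.378 and 0.163. Differently numbered libraries of these groups had -0.319 to 0.157. The numbers were taken to pair these groups, although the 0.163 of number 3 is close to that highest value. The main fit did not use this pairing, and the block did. Over all groups 7 of 9 same-numbered pairs were above 0.1, with a lowest value of -0.0129, and 3 of 18 differently numbered pairs. sgKeap1-2 and sgCtrl were therefore not taken as paired by this check. Same-numbered libraries share a description prefix of unstated meaning. A gene of the cholangiocyte marker list is not reported here.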

Additional observations from a re-analysis of the deposited data

How the results depend on the processing

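With sgKeap1-1 against sgCtrl 17 members passed with the replicate block and 3 at 1 or more on the absolute log2 scale, and 4 to 13 when 1 library was left out. With sgKeap1-2 against sgCtrl 25 passed with the replicate block, 10 at 1 or more on the absolute log2 scale, and 11 to 21 without 1 library. With both guides together 20 passed with the replicate block, 6 at 1 or more on the absolute log2 scale, and 13 to 21 without 1 library. Beside these counts the block called 8.83, 17.7 and 14.5% of all features, and 1 or more on the absolute log2 scale 2.57, 5.38 and 4.20% of all features. Between the guides 0 members passed under every alternative run, the block and each left-out library included. By DESeq2's test 13, 21 and 20 members passed with sgKeap1-1, sgKeap1-2 and both guides, beside 5.16, 11.6 and 11.2% of all features, by limma-voom 10, 20 and 18, beside 3.78, 10.1 and 8.93%, and with at least 10 counts in every library 10, 20 and 15, beside 3.19, 9.44 and 8.42%. Without the 3 libraries numbered 2, an alternative chosen after seeing the data, 12, 18 and 19 passed, beside 3.63, 8.55 and 7.85%. With the block, AHSG, CP, FETUB and SERPINA3 also passed with sgKeap1-2. FETUB and SERPINA3 passed the filter on low counts only through libraries where they were high, so their calls are not support for a change. FGA with sgKeap1-1 lost its call by limma-voom (adjusted p = 0.055) and with at least 10 counts in every library (0.0562), ITIH1 with sgKeap1-2 by limma-voom (0.0653), and F12 with sgKeap1-2 in a fit of only the groups compared (0.0628). In that fit F12 and SERPINC1 passed with sgKeap1-1 (0.0156 and 0.0437), as they did by DESeq2 (0.0398 and 0.0278). Without the libraries numbered 2, the calls of AGT with sgKeap1-1 and of C1R, F12, FGG and ITIH1 with sgKeap1-2 were lost (adjusted p = 0.0539 to 0.0778), while CP with each guide (0.00884 and 0.0111) and ORM2 with sgKeap1-1 (0.047) passed. Group medians kept their direction under both other scalings. Among the members, 9 values outside the left-out libraries lost their call and 17 gained one. Genes of the further lists, such as IL6R and SOCS3, which gained a call with the block, are not in these counts. For left-out libraries, where genes of the further lists were also counted, 64 values lost a call and 3 gained one. KEAP1 with sgKeap1-2, not called, had a log2 fold change of -0.12 without sgCtrl replicate 1, -0.015 without sgKeap1-2 replicate 2, and up to 0.11 without another library. The cause of these shifts was not tested. The widest standard errors with each guide were those of ITIH1, FETUB and SERPINA3, which had few counts, and of HPX and CP, which had more.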
